A study of Mus musculus with 48 samples.

Results

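Potassium channel genes, whose symbols begin with Kcn, were followed in the cerebellum and the inferior olive of mouse models of spinocerebellar ataxia type 1, a dominant ataxia caused by a lengthened glutamine repeat in ATXN1. Of the 24099 gene symbols of the series, 97 begin with Kcn. A gene was kept where its mean reached 0.5 FPKM (fragments per kilobase of transcript and per total of mapped fragments) in the wild-type (WT) controls of at least 1 comparison, which left 79 genes and set aside 15. *Kcne2* and *Kcnj13*, which mark the choroid plexus, and *Kcnd3os* were left out by name. Expression was measured by poly-A RNA-seq of male mice in 16 groups of 3 libraries, 48 in all, so that each of the 8 comparisons set 3 mutants against 3 WT controls. The *Atxn1* 154Q/2Q KI mice carry the expanded repeat in 1 copy of the mouse gene, under its own regulatory elements, on a C57BL/6J background and were set against WT mice of that background. The ATXN1-82Q Tg mice carry human ATXN1 with the expanded repeat under the Purkinje cell promoter *Pcp2*, in addition to their own *Atxn1*, on an FVB/NJ background and were set against WT FVB/NJ mice. Both models were examined at 5 and 12 weeks of age, each comparison with WT controls of its own. Each comparison was normalized on its own by the authors, so that FPKM of different comparisons were set side by side and not tested.

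Potassium channels let potassium leave the cell, return the membrane to rest after an action potential and set how often a neuron fires. Voltage-gated (Kv) channels open with depolarization, Kv3 channels close fast enough to allow rapid firing, and Kv4 channels with their KChIP partners delay the next spike. BK and SK channels answer to calcium, Kir channels pass current best near rest and, in astrocytes, take up potassium that neurons release, and the K2P channels (with tandem pore domains) carry the leak. In the cerebellum these channels shape the fast regular firing of Purkinje cells, the only output of the cerebellar cortex, and in the inferior olive they shape the slow oscillations of the neurons that give rise to climbing fibers. The 79 genes held 6 Kv1, 2 Kv2, 4 Kv3, 3 Kv4 and 5 Kv7 subunits and 9 modifier Kv subunits, which do not form channels alone. They also held 7 subunits of the EAG, ERG and ELK channels, 4 of the BK group, 3 of the SK group, 2 of the sodium-activated channels, 11 Kir and 11 K2P subunits, 3 Kv beta, 4 KChIP and 2 KCNE partners, and 3 other symbols (*Kcnmb4os1*, *Kcnq1ot1* and *Kcnrg*). The BK group here is *Kcnma1*, *Kcnmb2*, *Kcnmb4* and *Kcnu1*, the last of them the BK-like Slo3.

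The libraries listed between 12345 and 12967 genes at 1 FPKM or more. How many fragments each library held is unknown, since the values are FPKM. The dissections carried the genes of their tissue. A list of 12 Purkinje cell genes summed to between 3609 and 5001 FPKM in WT cerebellum and to between 511 and 641 FPKM in WT inferior olive, and up to 10 genes of inferior olive and brainstem neurons to between 14.1 and 59.1 FPKM in WT cerebellum and to between 216 and 275 FPKM in WT inferior olive. Genes of neighboring tissue varied between libraries. In WT cerebellum 6 genes of forebrain neurons summed to between 7.49 and 77.2 FPKM, and in WT inferior olive up to 10 genes of the choroid plexus summed to between 10.4 and 4531 FPKM. The same 6 forebrain genes summed to between 122 and 165 FPKM in WT inferior olive, most of it *Lamp5*, so that the list is not specific to forebrain there. Mouse *Atxn1* was called in no comparison, and its FPKM checks neither label, because the KI allele is read from the same gene and the Tg allele is human. Of the 79 genes, 4 reached 0.5 FPKM only in entries that the deposited tables give jointly with a neighboring gene, among them *Kcnk4* with *Tex40*, *Kcnrg* with *Trim13*, and *Kcnq1* with *Kcnq1ot1*. The FPKM of such an entry is not that of the potassium channel gene alone. *Kcnmb4os1* (chr10:116418052-116421237, mm10, + strand) lies within *Kcnmb4* (chr10:116417861-116473878, - strand), and as the strand used in counting is not given, reads of this pair cannot be told apart.

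In the WT cerebellum high FPKM were found in each of several groups of channels, given as the range of means over the 4 sets of WT controls. The K2P subunit *Kcnk1* (85.7 to 98.4 FPKM), the Kv4 subunit *Kcnd2* (74.0 to 102 FPKM), its KChIP partner *Kcnip4* (70.3 to 76.4 FPKM) and the astrocyte Kir subunit *Kcnj10* (69.0 to 99.8 FPKM) led their groups there in all 4 sets. The ranges of these 4 genes overlapped in part, so that the order among them was not settled. The Kv beta subunit *Kcnab1* (55.5 to 76.4 FPKM) led its group in both sets of KI controls, while in both sets of Tg controls *Kcnab3*, given there jointly with *Trappc1*, was above it. Of the Kv1 subunits *Kcna1*, the gene of episodic ataxia type 1, led in the inferior olive with 78.8 to 91.8 FPKM. In the cerebellum its range of 57.03 to 72.3 FPKM overlapped that of *Kcna2* (53.8 to 68.3 FPKM), which was the higher of the pair in both 12 week sets.

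In the inferior olive *Kcnj10* (chr1:172341210-172374085) gave 172 to 271 FPKM and the Kv beta subunit *Kcnab2* 156 to 174 FPKM. In the WT controls of the 12 week KI mice *Kcnab2* (174.0 FPKM) was slightly above *Kcnj10* (172.5 FPKM), and in the other sets *Kcnj10* led. *Kcnj10* is given jointly with *Pigm* in every set but that of the 12 week KI mice, where it is given alone. The modifier subunit *Kcng4* (43.0 to 47.0 FPKM in the cerebellum, 19.0 to 25.9 FPKM in the inferior olive), the BK pore subunit *Kcnma1* (38.5 to 47.4 and 12.0 to 14.04 FPKM) and the sodium-activated *Kcnt1* (40.4 to 44.5 and 16.9 to 22.2 FPKM) led their groups in both tissues. So did the SK subunit *Kcnn2* (14.1 to 24.2 and 14.1 to 24.4 FPKM). The ERG subunit *Kcnh2* led its group in the inferior olive (35.9 to 42.8 FPKM), whereas in the cerebellum its range (8.87 to 14.2 FPKM) overlapped that of *Kcnh1* (8.29 to 15.1 FPKM), and *Kcnh1* and *Kcnh6*, given there jointly with *Dcaf7*, were each the highest in 1 set. Among the leading genes of low level was *Kcne1l* (6.60 to 9.61 and 4.42 to 6.95 FPKM), a KCNE-like gene. Of the 3 other symbols, *Kcnmb4os1* led in the cerebellum with 7.86 to 8.87 FPKM.

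The WT tissues differed in their potassium channel genes. Cerebellum was compared with inferior olive in 4 pairs of WT groups (each background at each age), on log2(FPKM + 0.1) centred on the median of all genes, and the comparison is a description, because the tissues were normalized apart. For 67 of the 79 genes all pairs gave a value from like entries, and 12 were left out. Of the 67 genes, 11 were over 2-fold higher in the cerebellum in all 4 pairs, against 5.55% of the 12795 genes compared, 19 were over 2-fold higher in the inferior olive, against 6.98% of all genes, and 37 were neither. Some of the 19 were kept only through their WT level in the inferior olive, as given below. With a pseudocount of 1 in place of 0.1 the counts of 11 and 19 were 10 and 8. The BK accessory subunit *Kcnmb4* was the most cerebellar with 6.03 to 7.69 fold (31.6 to 40.2 FPKM against 4.48 to 5.43 FPKM), beside its antisense neighbor *Kcnmb4os1* with 5.13 to 8.42 fold. The Kir subunit *Kcnj12* followed with 4.79 to 6.17 fold. The leak channels *Kcnk3* (2.86 to 3.401 fold) and *Kcnk10* (2.64 to 4.09 fold), the BK pore *Kcnma1* (2.82 to 3.62 fold) and the Kv4 pores *Kcnd2* (2.68 to 3.75 fold) and *Kcnd3* (2.63 to 2.98 fold) made up the rest of the leading 8. *Kcnj9*, *Kcnh3* and *Kcnip4* were the other cerebellar genes.

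In the opposite direction the modifier subunit *Kcng1* (chr2:168260117-168281736) stood apart, with 5.12 to 6.46 FPKM in the inferior olive and 0.0855 to 0.235 FPKM in the cerebellum, 15.8 to 30.0 fold. The modifier *Kcns3* (5.80 to 8.55 fold), the Kv1 subunit *Kcna5* (4.19 to 6.90 fold), the ELK subunit *Kcnh8* (4.03 to 9.07 fold) and the Kv7 subunit *Kcnq5* (3.20 to 5.79 fold) followed. *Kcng1*, *Kcna5*, *Kcnh8* and *Kcnt2* stayed below 0.5 FPKM in the WT cerebellum, where the pseudocount of 0.1 holds the ratio down. These genes were kept only through their WT level in the inferior olive, so that the rule for keeping genes favored this direction for them. The ERG subunit *Kcnh2* was 2.77 to 4.01 fold higher, the beta subunit *Kcnab2* 2.93 to 3.37 fold and the sodium-activated subunit *Kcnt2* 2.90 to 4.54 fold. With age few WT levels passed 2-fold. Of 58 genes compared between 12 and 5 weeks, 2 did so, both in the C57BL/6J cerebellum, where *Kcnc2* was 2.52-fold and *Kcnh5* 2.37-fold higher at 12 weeks, and in these libraries the forebrain neuron gene *Nrgn* also varied.

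**Figure D1:**
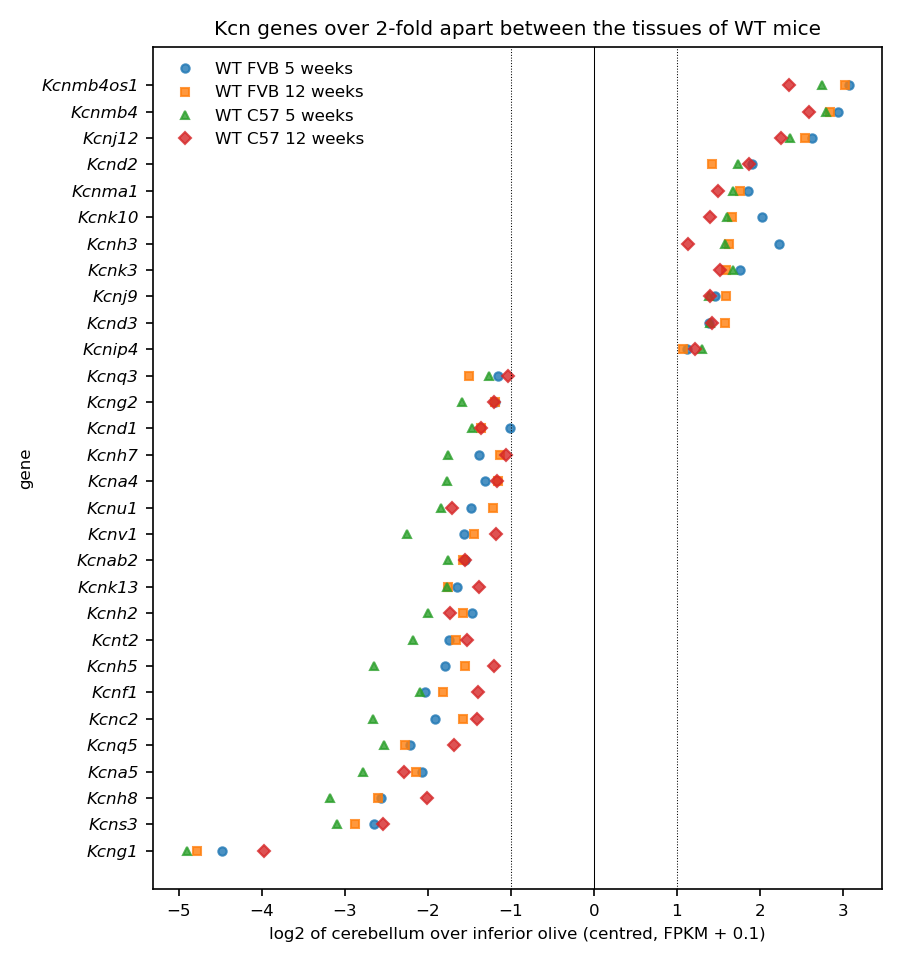
Cerebellum over inferior olive in WT mice (horizontal axis, log2, centred on the median of all genes) for the 30 potassium channel genes over 2-fold apart in all 4 pairs, 1 symbol for each pair of background and age. The 11 genes to the right were higher in the cerebellum and the 19 to the left higher in the inferior olive, with *Kcng1* farthest to the left, and dotted lines mark 2-fold.

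In the Tg cerebellum at 5 weeks 67 of the 79 genes could be tested (0.5 FPKM or more in both genotypes), and 10 of them, 14.9%, were called at an adjusted p under 0.05, against 4.16% of all genes tested. Of these 9 were down-regulated and 1 up-regulated, where 3.73% of all genes were down-regulated and 0.428% up-regulated. The median log2 fold change of the 67 genes was -0.0044, beside -0.0048 over all genes. The Kv beta subunit *Kcnab1* (chr3:65109384-65378223), which speeds the inactivation of Kv1 channels, gave 59.2, 57.6 and 55.1 FPKM in WT controls and 34.8, 34.0 and 33.4 FPKM in Tg mice. The genotypes did not overlap (log2 fold change -0.75, SE 0.037, adjusted p = 6.56e-06). Next was *Kcng4* (chr8:119623854-119635680), a modifier that joins Kv2 channels, with 44.7, 42.4 and 41.7 FPKM in WT and 26.0, 27.2 and 28.2 FPKM in Tg (log2 fold change -0.66, SE 0.043, adjusted p = 3.00e-05). *Kcnip1* (chr11:33629339-33993152), a KChIP partner of Kv4, gave 28.0, 27.2 and 26.5 FPKM in WT and 17.0, 16.1 and 18.6 FPKM in Tg (log2 fold change -0.66, SE 0.055, adjusted p = 1.35e-04). In all 3 genes each Tg library lay below the lowest WT library.

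The BK channel followed at 5 weeks with its pore *Kcnma1* (chr14:23289431-24014491) at 43.6, 44.9 and 41.9 FPKM in WT and 28.3, 26.7 and 32.3 FPKM in Tg (log2 fold change -0.58, SE 0.066, adjusted p = 0.00101). Its neuronal accessory subunit *Kcnmb4*, which slows BK gating, gave 36.0, 40.4 and 44.1 FPKM in WT and 24.8, 26.6 and 26.3 FPKM in Tg (log2 fold change -0.63, SE 0.069, adjusted p = 8.37e-04). *Kcnmb4os1*, which shares its place, was at 65.9% of the WT mean (adjusted p = 0.0171). The Kv1 subunit *Kcna6* was at 69.7% (adjusted p = 2.91e-04) and the KChIP *Kcnip4* at 78.2% of WT (adjusted p = 0.0166). The M-current subunit *Kcnq3* was up-regulated, from 5.91, 5.69 and 5.87 FPKM to 6.91, 7.02 and 8.28 FPKM (log2 fold change 0.34, SE 0.073, adjusted p = 0.0399).

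Purkinje cell genes moved with these calls. All 12 genes of the Purkinje list were down-regulated at 5 weeks, and their sum was between 3921 and 4293 FPKM in WT and between 2095 and 2307 FPKM in Tg. Of 10 granule cell genes 2 were down-regulated, and 4 of 8 microglia genes and 2 of 10 astrocyte genes were up-regulated. The part of this change in the potassium channel results was not tested, and in bulk tissue fewer cells of a type and less RNA per cell cannot be told apart. Potassium channel genes that led in the cerebellum did not all move. *Kcnd2* was at 101% of WT (log2 fold change 0.0094, SE 0.045), *Kcnk1* at 96.8% (-0.047, SE 0.034) and *Kcna1* at 101% (0.019, SE 0.041), and none of the 3 was called.

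At 12 weeks 66 genes were tested in the Tg cerebellum and 21, 31.8%, were called, against 7.58% of all genes. Of these 18 were down-regulated and 3 up-regulated, where 5.29% of all genes were down-regulated and 2.29% up-regulated. The median of the 66 genes was -0.0084, beside -0.017 over all genes. All 10 genes called at 5 weeks were among the 21, in the same direction, which is 100% of the 5 week calls and 47.6% of the 12 week calls. *Kcnab1* was at 58.6, 52.8 and 55.2 FPKM in WT and 25.6, 25.2 and 28.3 FPKM in Tg (log2 fold change -1.07, SE 0.064, adjusted p = 7.17e-05), 47.5% of WT. *Kcng4* was at 49.95, 50.1 and 41.0 FPKM in WT and 23.99, 23.3 and 20.7 FPKM in Tg (log2 fold change -1.05, SE 0.092, adjusted p = 4.64e-04). In both every Tg library lay below every WT library.

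The KChIPs *Kcnip1*, at 54.8% of WT (adjusted p = 2.08e-04), and *Kcnip4*, at 66.1% (adjusted p = 0.0122), stood lower relative to WT than at 5 weeks. The BK pore *Kcnma1* was at 61.9% (adjusted p = 7.43e-04), its partner *Kcnmb4* at 52.8% (adjusted p = 0.00160) and *Kcnmb4os1* at 47.9% of WT (adjusted p = 0.0119). The ELK subunit *Kcnh3* gave 1.64, 1.01 and 1.36 FPKM in WT and 0.558, 0.621 and 0.654 FPKM in Tg (log2 fold change -0.99, SE 0.20, adjusted p = 0.0232), the lowest level of the called genes. The K2P subunit *Kcnk12* gave 23.2, 17.9 and 19.1 FPKM in WT and 13.2, 13.5 and 9.96 FPKM in Tg (log2 fold change -0.71, SE 0.14, adjusted p = 0.0204). *Kcnh3* and *Kcnk12* were not called at 5 weeks.

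Smaller decreases at 12 weeks were found in the Kv1 subunit *Kcna6* (68.3% of WT), the Kv3 subunit *Kcnc1* (69.1%), the EAG subunit *Kcnh1* (70.6%), and the G-protein gated Kir subunits *Kcnj9* (72.1%) and *Kcnj3* (77.2%), which slow firing downstream of GABA-B and other receptors. The leak channel *Kcnk3* (74.5%), the ATP-sensitive Kir pore *Kcnj11* (81.5%) and the KChIP *Kcnip3* (83.4%) completed the down-regulated genes. The 8 genes of this group lie beyond the 10 largest decreases that were to be named and are given to complete the count. By group, 3 of 4 KChIPs, 2 of 4 of the BK group and 3 of 10 Kir subunits tested were down-regulated, and 0 of 3 Kv4 subunits were called. Up-regulated were *Kcnq3*, from 4.55, 4.93 and 5.44 FPKM to 6.99, 7.14 and 6.59 FPKM (log2 fold change 0.47, SE 0.086, adjusted p = 0.0174), the SK subunit *Kcnn2*, from 24.7, 22.4 and 21.9 FPKM to 29.1, 29.1 and 28.2 FPKM (log2 fold change 0.33, SE 0.059, adjusted p = 0.0164), and the Kv1 subunit *Kcna2*, at 114% of WT (adjusted p = 0.0419). *Kcnn2* shapes the hyperpolarization that follows Purkinje cell spikes.

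At 12 weeks 11 of 12 Purkinje cell genes were down-regulated (sum between 3609 and 4412 FPKM in WT and between 1658 and 1818 FPKM in Tg), as were 4 of 10 granule cell genes (between 1837 and 2191 FPKM in WT and between 1492 and 1661 FPKM in Tg), while 2 of 7 microglia genes and 1 of 8 oligodendrocyte genes were up-regulated and of 10 astrocyte genes 3 were up- and 1 down-regulated. Some genes of neighboring tissue were also higher: 2 of 5 leptomeningeal fibroblast genes, *Col1a1* and *Col1a2*, were up-regulated (sum between 33.2 and 42.4 FPKM in WT and between 43.9 and 48.7 FPKM in Tg), as was *Slc6a5*, 1 of 2 tested genes of the inferior olive and brainstem neuron list (sum between 27.4 and 36.2 FPKM in WT and between 39.6 and 47.3 FPKM in Tg). The 9 choroid plexus genes tested summed to between 589 and 1329 FPKM in WT and between 1422 and 1903 FPKM in Tg. Of these 0 were called. The part of these changes in the potassium channel calls was not tested. The count of called genes depended on single libraries. Without WT replicate 1 it was 10 and without Tg replicate 2 it was 13. Under every alternative run *Kcna6*, *Kcnab1*, *Kcng4*, *Kcnip1*, *Kcnma1* and *Kcnmb4* stayed called at both ages, and *Kcnj9* at 12 weeks.

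The partners and the other channels gave context to these changes. Of the 13 partner genes of potassium channels listed, 11 were tested in the Tg cerebellum. *Dpp10*, a DPP-like partner of Kv4, was down-regulated at 5 weeks (61.8, 61.4 and 58.7 FPKM in WT, 42.6, 41.7 and 43.3 FPKM in Tg, adjusted p = 3.68e-05) and at 12 weeks (61.2, 53.7 and 56.0 FPKM in WT, 30.0, 33.2 and 34.5 FPKM in Tg, adjusted p = 4.92e-04). At 12 weeks *Abcc8*, the sulfonylurea receptor that pairs with *Kcnj11* (log2 fold change -0.55, SE 0.12, adjusted p = 0.0298), the Kv2 partner *Amigo1* (log2 fold change -0.23, SE 0.057, adjusted p = 0.0482) and the Kv1-associated *Lgi1* (log2 fold change -0.23, SE 0.047, adjusted p = 0.0262) were also down-regulated, 4 in all. Of 29 genes of other channels tested, 7 were down-regulated at 5 weeks, and 8 were down- and 1 up-regulated at 12 weeks. The T-type calcium channel *Cacna1g* (-0.94 at 5 weeks, -1.50 at 12 weeks) and the calcium channel subunits *Cacnb2* (-0.64 and -0.80) and *Cacna2d2* (-0.46 and -0.66) were called at both ages by log2 fold change, as was the sodium channel subunit *Scn2b* (-0.13 and -0.34). *Scn4b* (-0.30) was down-regulated at 5 weeks, and *Cacna1a* (-0.44), the gene of spinocerebellar ataxia type 6, *Cacnb4* (-0.33) and *Ryr1* (-0.60) at 12 weeks. *Cacna1e* was up-regulated at 12 weeks (0.55).

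**Figure D2:**
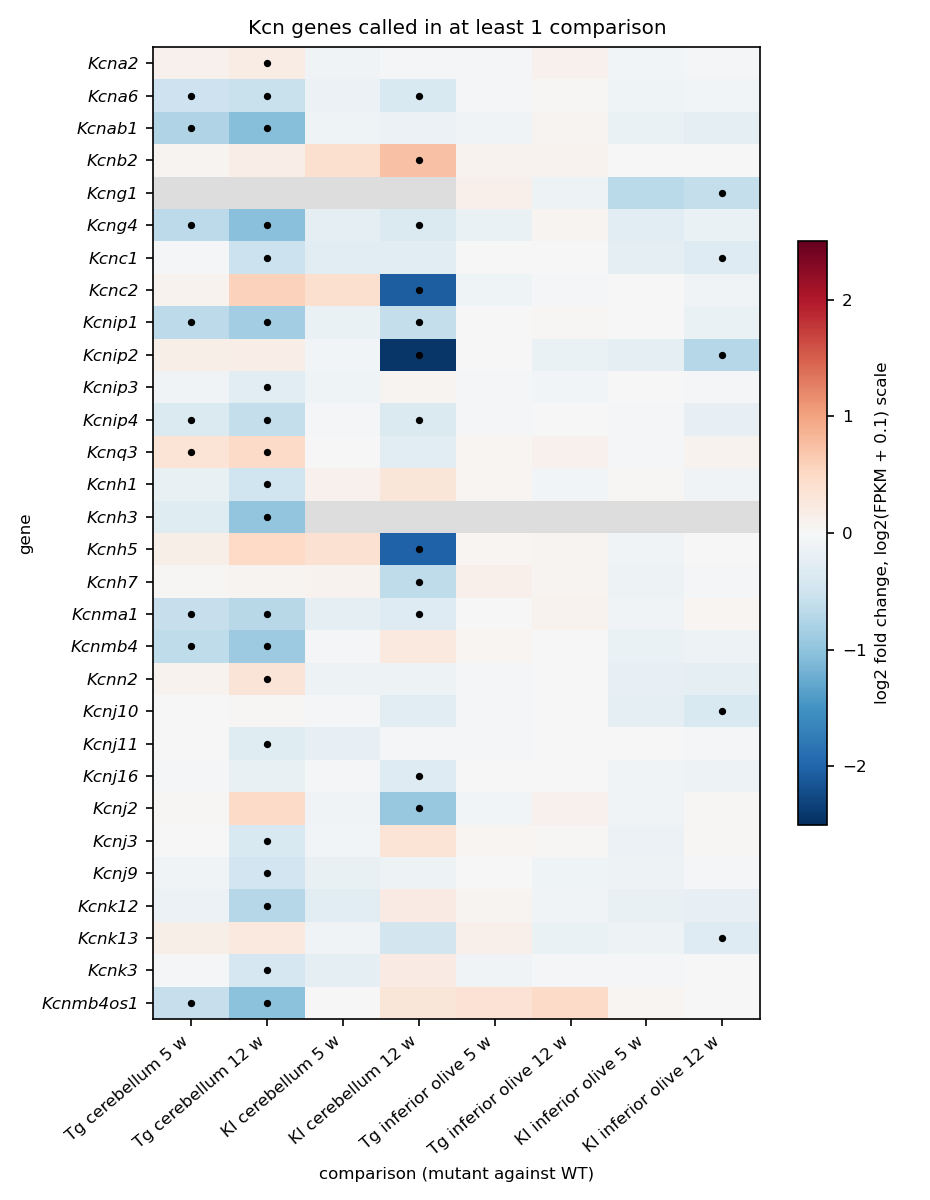
Log2 fold changes of mutant against WT (color, log2(FPKM + 0.1) scale) for 30 potassium channel genes called in at least 1 of the 8 comparisons, ordered by group of channel. Dots mark calls at an adjusted p under 0.05 and gray marks comparisons in which a gene was not tested, and both Tg inferior olive columns hold 0 calls.

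The transgene promoter drives expression in Purkinje cells, which the inferior olive lacks. *Pcp2* itself gave 5.44, 4.46 and 4.93 FPKM in WT and 2.11, 22.0 and 1.28 FPKM in Tg inferior olive at 5 weeks, and 4.65, 5.09 and 2.92 and 3.09, 2.24 and 3.01 FPKM at 12 weeks, so that 1 Tg library of 5 weeks stood above the rest. In the Tg inferior olive 0 of 74 genes were called at 5 weeks and 0 of 76 at 12 weeks by limma, against 0% of all genes at either age. The smallest p at 5 weeks was that of *Kcng4*, with 21.3, 20.7 and 23.5 FPKM in WT and 19.1, 19.7 and 19.3 FPKM in Tg (log2 fold change -0.17, SE 0.051, adjusted p = 0.5996), and at 12 weeks that of the Kv4 pore *Kcnd3*, with 9.24, 9.89 and 9.86 FPKM in WT and 10.5, 10.8 and 10.4 FPKM in Tg (log2 fold change 0.12, SE 0.048, adjusted p = 0.999). *Kcnab1*, the gene that fell furthest in the Tg cerebellum, gave 41.6, 46.0 and 46.5 FPKM in WT and 47.5, 47.5 and 45.5 FPKM in Tg inferior olive at 12 weeks, and the genotypes overlapped.

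In the KI cerebellum at 5 weeks 62 genes were tested and 0 were called by limma, against 0.0075% of all genes. The median log2 fold change of the 62 genes was -0.066, beside -0.0020 over all genes. At 12 weeks 60 genes were tested and 15, 25.0%, were called, against 5.75% of all genes. Of these 14 were down-regulated and 1 up-regulated, where 3.68% of all genes were down-regulated and 2.07% up-regulated. The median log2 fold change was -0.23, beside 0.012 over all genes.

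The largest decreases of the 12 week KI cerebellum lay in 3 genes of low level in the cerebellum, of which *Kcnc2* and *Kcnh5* were over 2-fold higher in the WT inferior olive. *Kcnip2* (chr19:45791839-45816061), a KChIP partner of Kv4 in forebrain neurons, gave 4.55, 2.68 and 4.50 FPKM in WT and 0.482, 0.672 and 0.746 FPKM in KI (log2 fold change -2.43, SE 0.23, adjusted p = 0.00266). *Kcnc2* (chr10:112271121-112467024), a Kv3 subunit of fast-firing neurons, gave 10.8, 4.52 and 7.34 FPKM in WT and 1.49, 1.51 and 1.89 FPKM in KI (log2 fold change -2.07, SE 0.28, adjusted p = 0.00970). The EAG subunit *Kcnh5* gave 3.76, 1.49 and 2.26 FPKM in WT and 0.440, 0.536 and 0.534 FPKM in KI (log2 fold change -2.02, SE 0.29, adjusted p = 0.0124). In all 3 the WT libraries were spread widely and the KI libraries lay close together and below them. The Kir subunit *Kcnj2* was at 48.0% (adjusted p = 0.0467) and the ERG subunit *Kcnh7* at 62.3% of WT (adjusted p = 0.0345).

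Of the genes of neighboring brain neurons, *Nrgn* and *Slc17a6* moved with these decreases. The 6 forebrain neuron genes summed to 77.2, 45.2 and 61.6 FPKM in the WT controls and to 9.06, 9.50 and 8.94 FPKM in KI cerebellum at 12 weeks, and the 9 listed inferior olive and brainstem neuron genes to 59.1, 26.7 and 31.6 FPKM in WT and 13.97, 15.1 and 17.7 FPKM in KI. Of the forebrain genes *Nrgn* carried most of the WT sums, with 61.3, 40.2 and 55.8 FPKM in WT and 3.58, 2.27 and 2.69 FPKM in KI. Of the 3 genes tested *Nrgn* alone was called. *Neurod6* was at 3.36, 3.89 and 3.56 FPKM in WT and 3.74, 4.17 and 3.51 FPKM in KI (adjusted p = 0.651), and *Tbr1*, under the filter, was higher in KI in every library. *Lamp5*, also tested, gave 12.1, 0.736 and 1.86 FPKM in WT and 1.22, 2.66 and 2.19 FPKM in KI (adjusted p = 0.801). In the WT libraries the forebrain sum is thus mostly the level of *Nrgn*, while in each KI library *Neurod6* was above *Nrgn*. Of the brainstem genes *Slc17a6* was down-regulated (adjusted p = 0.0126) and *Slc6a5* was not called (adjusted p = 0.670). As the forebrain sum separates the genotypes at 12 weeks, its part and that of the genotype cannot be told apart in this comparison. At 5 weeks the sum did not follow the genotype, with 66.6, 17.5 and 7.49 FPKM in WT and 54.9, 8.94 and 20.8 FPKM in KI, and the genotypes overlapped in all 3 genes. *Kcnip2* was at 4.61, 1.17 and 0.910 FPKM in WT and 2.69, 1.12 and 1.42 FPKM in KI, *Kcnc2* at 5.78, 1.83 and 1.05 and 5.14, 1.48 and 3.49 FPKM, and *Kcnh5* at 2.04, 0.479 and 0.427 and 1.45, 0.562 and 1.31 FPKM. At 5 weeks the 3 libraries of each genotype took the same order in the sum and in each of the 3 genes. At 12 weeks this held for the WT but not for the KI libraries. There the library with the lowest sum, though not the lowest *Nrgn*, had the highest FPKM of *Kcnip2* and *Kcnc2*.

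**Figure D3:**
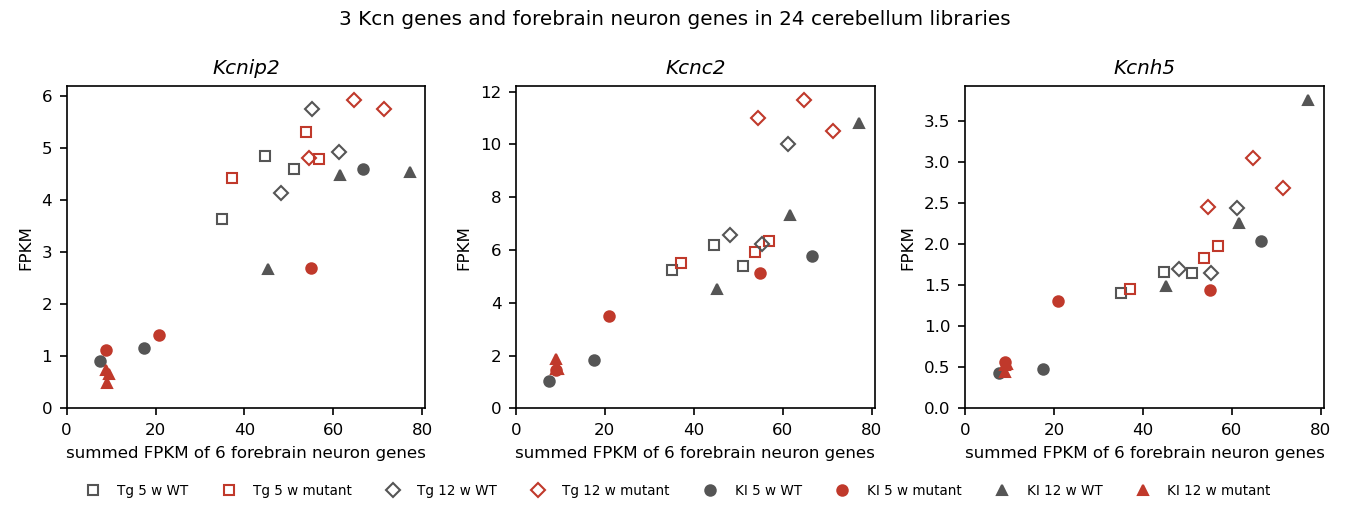
FPKM of *Kcnip2*, *Kcnc2* and *Kcnh5* (vertical axes) against the summed FPKM of 6 forebrain neuron genes (horizontal axes), in the 24 cerebellum libraries, gray for WT and red for mutants, open symbols for the Tg and filled symbols for the KI comparisons. *Nrgn* made up most of the sum except in the libraries with the lowest sums. The 3 KI libraries of 12 weeks (red triangles) lie near 9 FPKM of the sum at the lower left, with 3 of the 6 libraries of the 5 week KI comparison (circles) between 7.49 and 17.5 FPKM beside them, and values of different comparisons were normalized apart.

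The other decreases of the 12 week KI cerebellum were smaller. *Kcnip1* gave 29.0, 28.4 and 26.9 FPKM in WT and 17.6, 20.1 and 17.99 FPKM in KI (log2 fold change -0.60, SE 0.060, adjusted p = 0.00352). *Kcna6* gave 22.5, 21.0 and 21.9 FPKM in WT and 16.7, 17.5 and 16.2 FPKM in KI (log2 fold change -0.37, SE 0.048, adjusted p = 0.00883). No KI library of this pair reached the lowest WT library. *Kcnip4* was at 77.6% (adjusted p = 0.0125), *Kcng4* at 78.0% (adjusted p = 0.0194) and *Kcnma1* at 80.3% of WT (adjusted p = 0.0215). These 5 genes were also down-regulated in the Tg cerebellum at both ages. In all 6 genes were called in both models at 12 weeks, 28.6% of the 21 Tg calls and 40% of the 15 KI calls at 12 weeks. The glial Kir subunit *Kcnj16* was at 79.2% of WT (adjusted p = 0.0467). The tables give *Kcnip4* in more than 1 entry here, with mean FPKM of 62.4 and 7.62, and with the entries summed no call changed. The Kv2 subunit *Kcnb2* was up-regulated, from 1.90, 1.52 and 1.29 FPKM to 2.71, 2.37 and 2.84 FPKM (log2 fold change 0.72, SE 0.15, adjusted p = 0.0345).

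Of the Purkinje genes 4 of 12 were down-regulated in the 12 week KI cerebellum (sum between 3860 and 4499 FPKM in WT and between 3189 and 3375 FPKM in KI), of the astrocyte and Bergmann glia genes 3 of 10 (between 1015 and 1038 FPKM in WT and between 882 and 901 FPKM in KI) and of the oligodendrocyte genes 2 of 8 (between 2080 and 3150 FPKM in WT and between 1795 and 1817 FPKM in KI), and the part of these changes was not tested. The count of 15 depended on single libraries: it was 23 without WT replicate 1, 4 without WT replicate 3, and 3, 4 and 4 without KI replicates 1, 2 and 3. Under every alternative run *Kcnip1* and *Kcnip2* stayed called. Of 11 partner genes tested *Amigo1* was down-regulated (log2 fold change -0.18, SE 0.042, adjusted p = 0.0475). Of 28 genes of other channels 5 were down-regulated, among them the sodium channel subunits *Scn3b* (4.98, 2.28 and 2.58 FPKM in WT, 1.30, 1.14 and 1.44 FPKM in KI, adjusted p = 0.0441) and *Scn4b* (51.9, 32.2 and 38.2 FPKM in WT, 22.6, 25.1 and 24.3 FPKM in KI, adjusted p = 0.0372). The others were *Scn1a*, *Cacnb2* and *Cacna2d2*, at log2 fold changes of -0.28, -0.48 and -0.29, and *Cacna1c* (0.32), *Cacna1d* (0.31), *Cacna1e* (0.32) and the leak sodium channel *Nalcn* (0.27) were up-regulated.

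**Figure D4:**
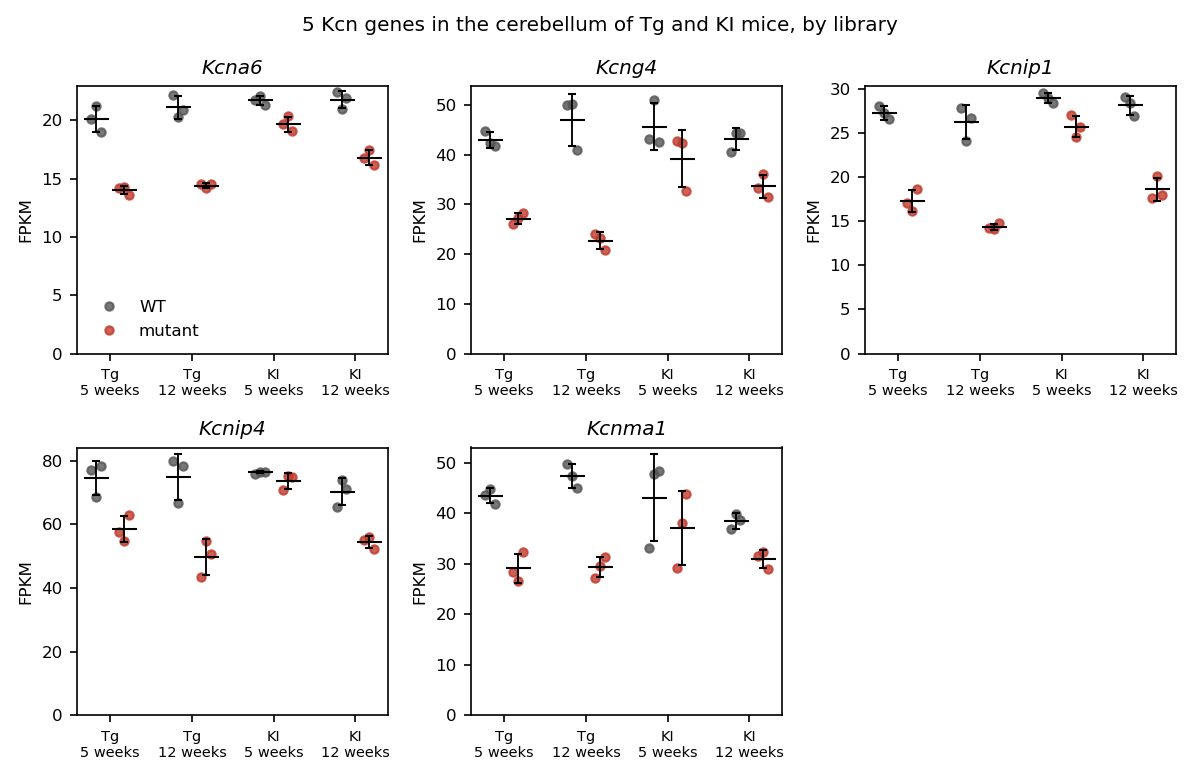
FPKM of 5 potassium channel genes called in the Tg cerebellum at both ages and in the KI cerebellum at 12 weeks, for each library of the 4 cerebellum comparisons (vertical axes), gray for WT and red for mutants, with the mean and SD of 3 libraries. In both Tg comparisons and in KI at 12 weeks the mutants lie below WT, and in KI at 5 weeks, where 0 genes were called, the genotypes overlap in *Kcng4* and *Kcnma1*.

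Promoter windows of 4 of the genes that fell in both models are set side by side with that of *Kcnj10*, which fell in the KI inferior olive. ATXN1 acts in a complex with the repressor Capicua, which is known to bind the octamers TGAATGAA, TGAATGGA, TCAATGAA and TCAATGGA. RefSeq windows of 300 bases (250 before and 50 after an annotated start, build GRCm38.p6, which is mm10) were at hand for 55 of the 79 genes, 78 windows in all. On either strand 4 of the 78 windows held an octamer, 5.13%, against 3.84% of all 32851 windows. The 4 windows belong to *Kcnip1*, *Kcnip4*, *Kcnj10* and *Kcns3*, and *Kcns3*, called in no comparison, is not shown. For *Kcnip1* and *Kcnip4* only the window that held an octamer is shown, so that the display does not measure how common the octamer is. The octamer, in its reverse complement, is in capitals, and *Kcna6* and *Kcnma1*, which fell in the same comparisons, held none in their window. Windows and strands are chr11:33843637-33843936 (-) for *Kcnip1*, which has 3 windows, chr5:49285610-49285909 (-) for *Kcnip4*, which has 2, chr1:172340960-172341259 (+) for *Kcnj10*, chr6:126740625-126740924 (-) for *Kcna6* and chr14:24004156-24004455 (-) for *Kcnma1*. Which start was in use in these tissues was not examined.
Kcnip1: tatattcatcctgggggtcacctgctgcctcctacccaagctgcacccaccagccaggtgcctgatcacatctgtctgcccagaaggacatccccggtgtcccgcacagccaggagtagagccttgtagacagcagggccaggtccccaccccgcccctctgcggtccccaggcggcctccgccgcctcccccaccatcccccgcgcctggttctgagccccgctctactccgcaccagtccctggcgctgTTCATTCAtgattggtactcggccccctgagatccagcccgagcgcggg
Kcnip4: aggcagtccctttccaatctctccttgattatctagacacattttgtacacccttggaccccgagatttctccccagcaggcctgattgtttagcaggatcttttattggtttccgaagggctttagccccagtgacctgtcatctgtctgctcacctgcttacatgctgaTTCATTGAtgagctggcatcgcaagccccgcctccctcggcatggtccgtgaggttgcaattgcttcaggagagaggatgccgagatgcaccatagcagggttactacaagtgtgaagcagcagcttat
Kcnj10: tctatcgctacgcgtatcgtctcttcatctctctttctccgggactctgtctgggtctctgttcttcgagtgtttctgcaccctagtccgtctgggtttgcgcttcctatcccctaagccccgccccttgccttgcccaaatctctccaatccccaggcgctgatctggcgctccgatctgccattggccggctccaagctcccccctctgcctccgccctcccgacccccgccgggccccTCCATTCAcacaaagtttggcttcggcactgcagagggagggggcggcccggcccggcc
Kcna6: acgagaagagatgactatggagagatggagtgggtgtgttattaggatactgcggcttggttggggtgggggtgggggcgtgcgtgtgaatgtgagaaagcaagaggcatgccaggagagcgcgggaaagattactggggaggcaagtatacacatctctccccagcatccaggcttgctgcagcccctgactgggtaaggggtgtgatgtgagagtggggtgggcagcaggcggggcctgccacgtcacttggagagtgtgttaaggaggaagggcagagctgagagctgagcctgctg
Kcnma1: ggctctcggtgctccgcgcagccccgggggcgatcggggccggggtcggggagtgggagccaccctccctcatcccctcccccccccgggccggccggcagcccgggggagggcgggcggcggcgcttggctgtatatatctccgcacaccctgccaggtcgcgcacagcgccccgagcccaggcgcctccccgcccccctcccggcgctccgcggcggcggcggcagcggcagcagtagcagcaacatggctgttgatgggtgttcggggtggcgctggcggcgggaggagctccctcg

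Among KI mice of 5 weeks 0 of 73 genes were called in the inferior olive by limma, against 0.0146% of all genes. The median log2 fold change of the 73 genes was -0.086, beside -0.0067 over all genes. *Kcng1*, with the largest ratio of inferior olive to cerebellum in WT, gave 6.56, 4.33 and 5.56 FPKM in WT and 3.91, 3.22 and 3.02 FPKM in KI at this age (adjusted p = 0.493).

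By 12 weeks 5 of 74 genes, 6.76%, were called in the inferior olive of KI mice, against 1.53% of all genes, and all 5 were down-regulated. The median log2 fold change of the 74 genes was -0.053, beside -0.0056 over all genes. *Kcnip2* gave 4.50, 5.77 and 5.65 FPKM in WT and 3.59, 3.11 and 2.86 FPKM in KI (log2 fold change -0.71, SE 0.12, adjusted p = 0.0265). *Kcng1* gave 5.84, 5.36 and 4.84 FPKM in WT and 3.23, 3.59 and 3.63 FPKM in KI (log2 fold change -0.60, SE 0.083, adjusted p = 0.0144). The Kir subunit *Kcnj10*, through which astrocytes clear potassium, gave 163, 182 and 172 FPKM in WT and 130.1, 137 and 133 FPKM in KI (log2 fold change -0.37, SE 0.046, adjusted p = 0.00946). In each of the 3 all KI libraries lay below WT. The Kv3 subunit *Kcnc1* was at 80.1% (adjusted p = 0.00892) and the K2P subunit *Kcnk13*, a leak channel found in microglia, at 79.8% of WT (adjusted p = 0.0374). *Kcnip2* was the only gene called in both tissues of the KI mice at 12 weeks, 6.67% of the cerebellar and 20% of the inferior olive calls.

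Astrocyte genes moved with *Kcnj10*: 4 of 10 were down-regulated, and their sum was between 825 and 911 FPKM in WT and between 699.5 and 718 FPKM in KI. Of the inferior olive and brainstem neuron genes 3 of 8 tested were down-regulated (sum between 255 and 275 FPKM in WT and between 214 and 234 FPKM in KI), of the forebrain neuron list 2 of 3, of the Purkinje list 2 of 12, of the granule cell genes 1 of 9 and of the oligodendrocyte genes 2 of 8. The 2 genes of the forebrain list were *Nrgn* and *Lamp5*, and *Lamp5* was high in these WT controls (128, 134 and 131 FPKM). The part of these changes in the potassium channel calls was not tested. *Crh*, a neuropeptide gene of olivary neurons, went from 20.6, 18.5 and 17.2 FPKM to 4.52, 3.87 and 5.21 FPKM (adjusted p = 7.59e-04), with a log2 fold change of -2.03. The 5 calls rested on single libraries: 1 was left without WT replicate 2 and without WT replicate 3, 3 without KI replicate 1 and 2 without KI replicate 2, and 0 of the 5 stayed called under every alternative. Of the other channels *Cacna1g* (log2 fold change -0.30, SE 0.051, adjusted p = 0.0309) and *Scn4b* (log2 fold change -0.27, SE 0.039, adjusted p = 0.0180) were down-regulated, and 0 partner genes were called.

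Of the 79 genes, all tested in at least 1 comparison, 33 were called in at least 1 of the 8 comparisons and 46 in none, against 11.9% of the 15422 genes tested at least once. By group, 4 of 4 KChIP subunits were called at least once, as were 6 of 11 Kir, 4 of 7 EAG, ERG and ELK and 3 of 11 K2P subunits. The Kv4 pores, which the KChIPs join, were called in none: *Kcnd1* spanned log2 fold changes of -0.19 to 0.14, *Kcnd2* of -0.25 to 0.064 and *Kcnd3* of -0.21 to 0.12 over the 8 comparisons. The Kv1 subunit *Kcna1* spanned -0.14 to 0.11, the SK subunit *Kcnn1* -0.10 to 0.057 and the leak channel *Kcnk1* -0.12 to 0.29. Among the genes that were not called the smallest adjusted p was 0.0505, that of *Kcna4* in the KI cerebellum at 12 weeks, with 1.80, 1.12 and 1.33 FPKM in WT and 0.731, 0.844 and 0.778 FPKM in KI. *Kcns3*, a modifier over 2-fold higher in the WT inferior olive, gave 1.31, 0.828 and 0.8998 FPKM in WT and 0.402, 0.463 and 0.700 FPKM in KI in the cerebellum at 12 weeks (log2 fold change -0.84, adjusted p = 0.0788), and the genotypes did not overlap. In the Tg cerebellum at 12 weeks its log2 fold change was in the opposite direction (0.65). The ERG subunit *Kcnh2* spanned -0.31 to 0.077. These genes lie outside the rule for naming and stand for the range of those not called.

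The differences between comparisons were tested with interaction terms over the 12 libraries of a pair of comparisons, with genes given in like entries in both. With age, 0 of 65 genes differed in the Tg cerebellum by limma, against 0.0853% of all genes, and 0 of 60 in the KI cerebellum, against 0% of all genes. For *Kcnip1* in the Tg cerebellum the log2 fold change at 12 weeks minus that at 5 weeks was -0.20 (SE 0.087, adjusted p = 0.339) and for *Kcnip4* -0.24 (SE 0.13, adjusted p = 0.428). The further decreases with age were therefore not separated from the spread between libraries. Without WT replicate 3 of the 12 week Tg comparison 3 genes were called.

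Between the models, 3 of 59 genes differed at 5 weeks, against 0.863% of all genes, and 30 of 58 at 12 weeks, against 11.8% of all genes. At 5 weeks *Kcnab1*, *Kcnip1* and *Kcna6* had the lower value in Tg. This count was 0 without WT replicate 1 of the Tg comparison, 1 without its WT replicate 2 or its Tg replicate 2, and 5 without KI replicate 3 of the KI comparison. At 12 weeks the Tg value was the lower for 15 genes and the higher for 15. *Kcnmb4* (Tg minus KI -1.17, SE 0.15, adjusted p = 7.47e-04) and *Kcnab1* (-0.93, SE 0.084, adjusted p = 1.44e-04) were lower in Tg. *Kcnmb4* gave 28.6, 32.8 and 35.1 FPKM in WT and 40.05, 35.0 and 39.7 FPKM in KI, where it was not called. Of the genes that fell in both models, *Kcng4* (-0.69, adjusted p = 0.00461) and *Kcnma1* (-0.37, adjusted p = 0.0202) fell further in Tg, while *Kcnip1* (-0.26, adjusted p = 0.0786), *Kcnip4* (-0.23, adjusted p = 0.230) and *Kcna6* (-0.18, adjusted p = 0.116) did not pass the test. *Kcnc2*, *Kcnip2* and *Kcnh5* were lower in KI (Tg minus KI 2.63, 2.58 and 2.51). The 12 week count was 17 and 19 without WT replicate 1 and Tg replicate 3 of the Tg comparison, and 18 and 19 without KI replicates 1 and 3. The models also differ in background, so that the mutation and the background cannot be told apart in this difference.

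**Figure D5:**
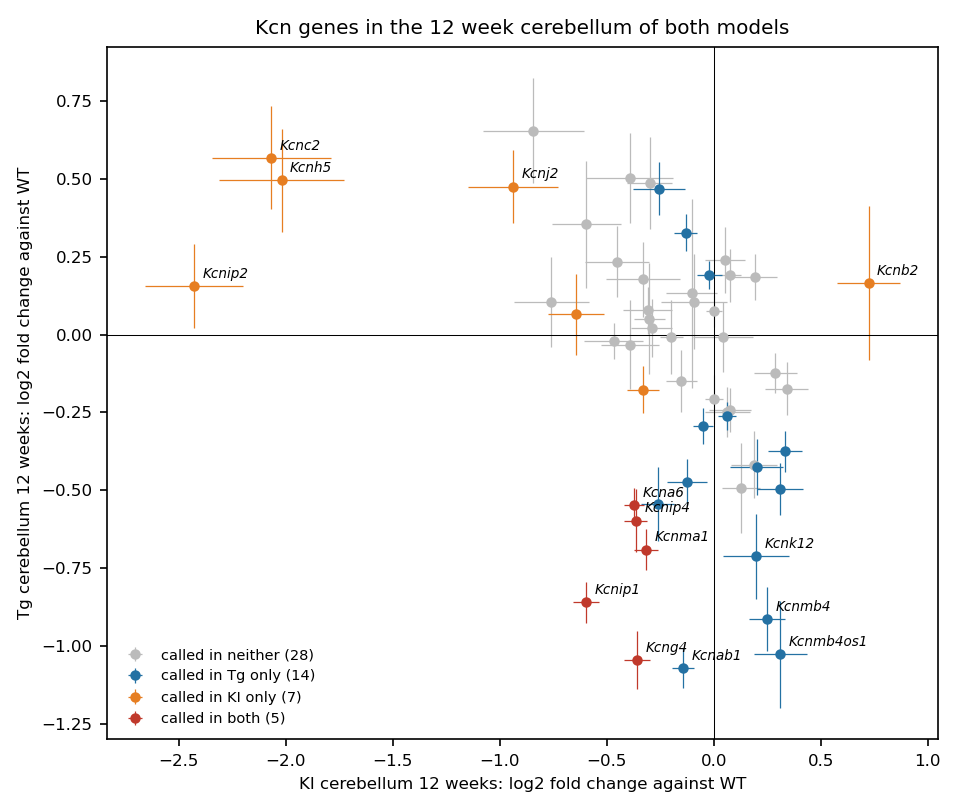
Log2 fold changes of 54 potassium channel genes at 12 weeks in the KI cerebellum (horizontal axis) and the Tg cerebellum (vertical axis), with SE bars and colors for the comparisons in which a gene was called. The 5 genes drawn as called in both lie at the lower left, *Kcnip2*, *Kcnc2* and *Kcnh5* at the far left near or above 0 in Tg, and *Kcnab1*, *Kcnmb4* and *Kcnk12* low on the Tg axis near 0 in KI.

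Between tissues at 12 weeks, 15 of 62 genes differed in Tg mice, against 4.89% of all genes, and 8 of 59 in KI mice, against 2.01% of all genes. In Tg mice 13 genes, among them *Kcnab1* (cerebellum minus inferior olive -1.14, SE 0.084, adjusted p = 9.47e-06) and *Kcnip1* (-0.89, SE 0.080, adjusted p = 3.53e-05), had the lower value in the cerebellum, and *Kcnq3* and *Kcnn2* had the higher value there. In KI mice all 8 had the lower value in the cerebellum, with *Kcnip1* (-0.44, adjusted p = 0.0178) and *Kcna6* (-0.31, adjusted p = 0.0226) beside *Kcnc2*, *Kcnip2* and *Kcnh5* among them. With the replicate number as a block the counts were 10 in Tg and 2 in KI. The sources do not say whether libraries of both tissues with the same number are from the same mouse, and the fit took all 12 as independent. The Tg count was 9 without WT replicate 1 of the cerebellum and 9 without Tg replicate 3 of the inferior olive. The KI count was between 2 and 5 when any of KI replicates 1 to 3 of either tissue, WT replicate 3 of either tissue or WT replicate 1 of the inferior olive was left out, and 13 without WT replicate 1 or 2 of the cerebellum.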

How the data were processed

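Poly-A RNA of 48 mouse libraries was sequenced as paired-end reads. The authors aligned the reads with TopHat2 (2.1.0) to mm10 and quantified genes with Cufflinks (2.2.1), and they deposited FPKM values normalized with Cuffnorm in 8 tables, 1 for each model, tissue and age. How strand was treated in counting is not given in the sources used here. FPKM scale out sequencing depth and transcript length, so that the depth behind a value is unknown and values of separate tables share no common scale. The columns of group averages and of the Cuffdiff comparison (fold change, p, q, status and significance) were not used. Entries without a gene symbol (9.16% to 13.1% of a table) were left out.

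In each table log2(FPKM + 0.1) was fitted with limma (3.58.1, R 4.3.3) with an intensity trend, for genes of at least 0.5 FPKM in both genotypes, and p-values were adjusted by Benjamini-Hochberg over all genes of the table. Fold changes are on this scale and understate those of low genes. Differences between comparisons were tested by interaction terms in 6 joint fits. Where a symbol had several entries that with the highest mean was used. Replicates are separate mice, by the study's methods. The script was tested on simulated data. Same-numbered mutant and WT libraries deviated together (r from 0.118 to 0.258) only in the Tg inferior olive at 12 weeks, where 0 genes were called with and without the replicate number as a block.

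The members, the gene lists and the tests were chosen with earlier results of these data known. Named were all called genes where there were at most 15 and otherwise the 10 largest changes in each direction, the leading gene of each group of channels by WT level, the 8 largest tissue ratios in each direction, the gene of smallest p where none was called, and the called genes of the partner and other channel lists. Genes named beyond this rule are marked. Results for some genes are not reported here, so that fewer genes may be named or drawn than counted. Coordinates are from GENCODE M21 and promoter sequences from RefSeq, both on GRCm38. Alternatives were another pseudocount, no filter, upper quartile scaling, no trend, the replicate block, leaving out each library and, chosen after the data were seen, summing the entries of a symbol.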

Additional observations from a re-analysis of the deposited data

Results flagged for a closer look

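In 56 cases the change of a potassium channel gene differed between a pair of comparisons by an interaction term, at an adjusted p under 0.05, and 42 of them are given. Each value is the difference of the log2 fold changes (mutant against WT), followed by both log2 fold changes. Groups of 3 libraries were not examined for outlying samples.

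At 5 weeks the Tg cerebellum lay below the KI cerebellum in 3 genes, with KI given first: *Kcnab1* (-0.64, from -0.11 and -0.75), *Kcnip1* (-0.49, from -0.17 and -0.66) and *Kcna6* (-0.37, from -0.14 and -0.52). At 12 weeks the 10 largest differences with the lower value in Tg, again with KI first, were in the BK partner *Kcnmb4* (-1.17, from 0.25 and -0.91) and its antisense neighbor *Kcnmb4os1* (-1.34, from 0.31 and -1.03), the Kv beta subunit *Kcnab1* (-0.93, from -0.14 and -1.07), the modifier *Kcng4* (-0.69, from -0.36 and -1.05) and the EAG subunit *Kcnh1* (-0.81, from 0.31 and -0.50). The Kir subunits *Kcnj3* (-0.71, from 0.33 and -0.38) and *Kcnj12* (-0.61, from 0.19 and -0.42) and the K2P subunits *Kcnk12* (-0.91, from 0.20 and -0.71), *Kcnk3* (-0.62, from 0.20 and -0.42) and *Kcnk10* (-0.62, from 0.13 and -0.49) completed them. Of these *Kcnj12* and *Kcnk10* were called in neither model alone.

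Among the larger differences with the lower value in KI at 12 weeks were those in *Kcnc2* (2.63, from -2.07 and 0.57), *Kcnip2* (2.58, from -2.43 and 0.16) and *Kcnh5* (2.51, from -2.02 and 0.50), the modifiers *Kcns3* (1.498, from -0.84 and 0.65) and *Kcns1* (0.95, from -0.60 and 0.35), the Kir subunit *Kcnj2* (1.41, from -0.94 and 0.48) and the Kv1 subunit *Kcna4* (0.86, from -0.76 and 0.10). The BK partner *Kcnmb2* (0.90, from -0.39 and 0.50) and the SK subunit *Kcnn3* (0.79, from -0.30 and 0.49) were also lower in KI. In these 9 genes the KI change was negative and the Tg change positive. The forebrain neuron sum, mostly *Nrgn* in WT, was lower in all KI libraries than in their WT controls (9.06, 9.50 and 8.94 against 77.2, 45.2 and 61.6 FPKM). The part of that sum in these values was not tested.

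Between tissues of the Tg mice at 12 weeks, with the inferior olive given first, the cerebellum had the lower value in 13 genes. Among them were *Kcnmb4os1* (-1.51, from 0.48 and -1.03), *Kcnmb4* (-0.93, from 0.012 and -0.91) and *Kcnma1* (-0.78, from 0.092 and -0.69) of the BK channel and its locus, *Kcnab1* (-1.14, from 0.067 and -1.07), *Kcng4* (-1.12, from 0.077 and -1.05), *Kcnc1* (-0.56, from 0.018 and -0.55), *Kcna6* (-0.57, from 0.026 and -0.55) and *Kcnh1* (-0.44, from -0.060 and -0.50) of the other Kv channels, *Kcnip1* (-0.89, from 0.032 and -0.86) and *Kcnip4* (-0.60, from -0.0029 and -0.60) of the KChIPs, and *Kcnj3* (-0.40, from 0.028 and -0.38) and *Kcnj9* (-0.37, from -0.10 and -0.47) of the Kir channels. The higher value lay in the cerebellum in *Kcnn2* (0.32, from 0.0032 and 0.33) and *Kcnq3* (0.37, from 0.10 and 0.47). In KI mice at 12 weeks, with the inferior olive first, the cerebellum had the lower value in *Kcnh5* (-2.002, from -0.016 and -2.02), *Kcnc2* (-1.98, from -0.086 and -2.07), *Kcnip2* (-1.71, from -0.71 and -2.43), *Kcna4* (-0.82, from 0.065 and -0.76), *Kcnip1* (-0.44, from -0.16 and -0.60) and *Kcna6* (-0.31, from -0.064 and -0.37).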

How the results depend on the processing

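No result reversed. The replicate block gave 9 called genes in place of 15 in the KI cerebellum at 12 weeks, 2 in place of 5 in the KI inferior olive of that age, 18 in place of 30 between the models at 12 weeks, 2 in place of 8 between the KI tissues, and 1 in place of 0 between the ages of the Tg cerebellum. Apart from the Tg inferior olive at 12 weeks, same-numbered libraries did not all deviate together, and whether those of both tissues come from the same mouse is not given. Without the trend 3 genes were called in the 12 week KI inferior olive, and with upper quartile scaling 1 between the ages of the Tg cerebellum. With a pseudocount of 1, 18 in place of 30 genes had a tissue pattern in WT, and with a 4-fold threshold 7. The cause was not tested.

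When each library was left out in turn, the called genes ranged from 7 to 9 in the Tg cerebellum at 5 weeks, from 10 to 24 in the Tg cerebellum at 12 weeks, from 3 to 23 in the KI cerebellum at 12 weeks and from 1 to 6 in its inferior olive. Between the models they ranged from 0 to 5 at 5 weeks and from 17 to 36 at 12 weeks, between the tissues from 9 to 21 in Tg and from 2 to 13 in KI, and between the ages of the Tg cerebellum from 0 to 3. Genes with a tissue pattern ranged from 24 to 32. The 107 results for single genes were rerun with each library left out in turn, so that a result counts more than once. Of these reruns 295 fell below the threshold and 675 did not. Of the results themselves, 33 fell below it with the block, 21 without the trend and 13 without the filter. With upper quartile scaling 12 did, with a pseudocount of 1 it was 2, and with entries summed 0 of the 51 rerun.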
